A study of Gallus gallus with 65 samples.

Results

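The late response of the chick utricle to neomycin was set against the immediate one, using the 44 arrays hybridised at the end of the treatment (0 hr, 25 arrays) and after 48 hr of recovery (19 arrays), out of 65 arrays in the time course. Arrays were chosen by the time point in their titles, with 3 biological replicates at each time. At 0 hr the replicates comprised 4, 11 and 10 arrays in turn, and at 48 hr 5, 8 and 6. The question was which transcription factor (TF) genes and families change the direction of their response, or acquire one, between these times.

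Utricles came from White Leghorn chicks in the second or the third week after hatching. In the 0 hr group they were cultured for 1 day with neomycin and collected at once. In the 48 hr group the same treatment was followed by a rinse and 48 hr in medium without the drug. Each group had its own time-matched controls, cultured for the same time and never given neomycin, and their RNA was the other channel of the same arrays. Every value is therefore a log2 ratio of neomycin-treated over control RNA at that time, and a difference between 48 and 0 hr is a difference between such ratios. Sensory epithelia, which hold the hair cells and the supporting cells around them, were freed with thermolysin, and a biological sample pooled 4 treated and 4 control epithelia. RNA was amplified, copied into amino-allyl cDNA and coupled to Cy3 or Cy5. The probes are human 50-mers spotted in duplicate, so that chicken RNA was read across species. Of the 1507 gene probes, 817 carry a name that is a current chicken RefSeq symbol or synonym.

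Hair cells are the mechanoreceptors of the inner ear, and aminoglycoside antibiotics such as neomycin kill them. In birds, the surrounding supporting cells can divide or convert directly into new hair cells, so that the epithelium recovers, whereas mammals replace few or none. Much of what is known of this response concerns TFs and the signals that feed into them, among them WNT/beta-catenin, Notch, NF-kB and AP-1.

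The 2 dye orientations are told apart by a title digit, and the headers of all 65 arrays name the dye that held neomycin RNA. The orientations did not oppose each other before they were turned, and across probes the 48 minus 0 hr difference from one orientation correlated with that from the other at r = -0.11 (1281 probes of the same spots, not independent replicates). The direction used here is the one named by the headers. Of the 1281 probes tested, 540 (42.2%) had a difference of the same sign in both orientations. Spots were weak, with a median foreground 2.07 times the local background at 0 hr and 1.60 times at 48 hr, and 3 arrays (1 of 48 hr replicate 3 and 2 of 0 hr replicate 3) had a brightness pattern that stood apart from the rest. Arrays of the 2 times were never quantified on the same day, so that time point and quantification day cannot be told apart. In RNA of a whole epithelium, fewer cells of a type and less RNA per cell cannot be told apart either.

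The labelled tissue was checked against TFs that mark its cells. Among hair cell TFs, POU4F3 and GFI1 were among the dimmest 15% of probes and were not tested. ATOH1, which specifies hair cells, and BARHL1, needed for their survival, had ratios near 0 at both times, with 48 minus 0 hr differences of 0.02 ± 0.13 and 0.00 ± 0.13 (log2, SE), and the sign of either depended on the processing. SOX2, a TF of supporting cells and sensory progenitors, had ratios of 0.40, 0.13 and -0.13 in replicates 1 to 3 at 0 hr and 0.15, -0.22 and -0.31 at 48 hr, so that the groups overlapped. Of the 5 tested probes of supporting cells and sensory progenitors, 2 were higher late and 3 lower, with a median difference of -0.03. The differences ran from -0.26 (SOX2) to 0.24 (HEY1, given below with Notch). These probes differ in sequence, so their brightness was not used to tell which cell types were present.

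No probe was called for 48 against 0 hr. Of 1281 probes tested, limma passed 0 (0%) at a threshold of 0.05 on p-values adjusted by Benjamini-Hochberg, the smallest being 0.998. At an unadjusted p under 0.05 there were 20 probes higher at 48 hr (1.56% of those tested) and 15 lower (1.17%), together fewer than the 64.05 that this limit passes by chance. Past 1.2-fold as well, 18 probes were higher (1.41%) and 10 lower (0.781%), which becomes 10 higher and 18 lower with all signs turned. On the arrays with neomycin in Cy5 alone the split was 7 higher and 16 lower. With single arrays as the units and quantification day as a random block, limma called 4 probes, all higher at 48 hr (IGFBP1, CTNNB1, QDPR and HNF3B), but the correlation estimated within a day was -0.0093, so that technical arrays counted almost as separate samples. Without 48 hr replicate 1, 2 probes (IGFBP1 and CTNNB1) were called. All of what follows is therefore a description of the probes that stood out, with values for each replicate. The SEs and p-values of the main fit rest on the spread between pooled samples. That spread takes in the replicates of the intermediate time point as well as those of 0 and 48 hr. A wide spread at the intermediate time can therefore enlarge the SE of 48 against 0 hr. Besides, 3 values against 3 cannot go below an exact two-sided permutation p of 0.1.

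The differences were small beside that spread. The median absolute difference was 0.08 on the log2 scale, the median SD of the replicates was 0.13 at either time, and the median SE of the difference was 0.13. Across the 1281 probes, single replicates of 0 hr correlated with each other at r from -0.17 to 0.44 (median -0.09) and those of 48 hr from -0.02 to 0.20 (median 0.03). A replicate of 0 hr and one of 48 hr correlated at a median r of 0.14, and the mean ratios of the 2 times at 0.34. The 3 values at 48 hr lay wholly above those at 0 hr for 50 probes (3.9%) and wholly below for 43 (3.36%).

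Each probe was then placed by its mean ratio at both times, with 1.2-fold (0.26 on the log2 scale) as the limit. A switch needed at least 1.2-fold at both times in opposite directions, a gain at least 1.2-fold at 48 hr but not at 0 hr, and a loss the reverse, the last 2 with a difference of at least 1.2-fold. No probe switched from lower to higher (0%) or from higher to lower (0%). A gain was seen for 16 probes toward a higher ratio (1.25%) and 4 toward a lower one (0.312%). Of these 20, 9 had a brightness of 800 or more, and CTNNB1 was not among them. The balance turned with the deposited ratios, at 8 higher and 24 lower, and on the arrays with neomycin in Cy5 alone, at 25 higher and 66 lower. A loss was seen for 6 probes that had been higher in treated epithelia at 0 hr (0.468%) and for 6 that had been lower (0.468%). Another 10 probes were higher at both times (0.781%) and 2 lower at both (0.156%). At 0 hr 47 probes passed 1.2-fold in all, and at 48 hr 51.

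**Figure D1:**
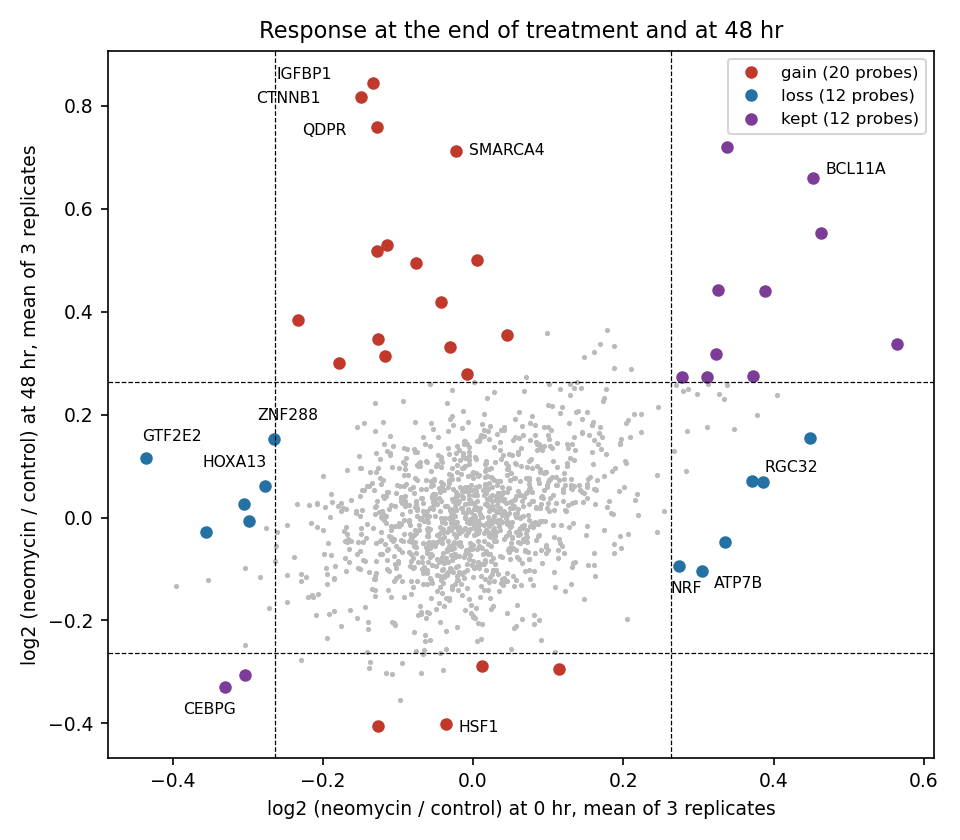
Mean log2 ratio of neomycin-treated over control RNA at 0 hr (horizontal) and at 48 hr (vertical) for the 1281 probes tested, 1 point per probe, with dashed lines at 1.2-fold. The 20 gains stand above and below the middle column, the 12 losses left and right of the middle band, and the upper left and lower right corners, where switches would lie, are empty.

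Of the gains, CTNNB1 and IGFBP1 were the largest, and neither had a response in replicate 1. CTNNB1 encodes beta-catenin, which joins cadherins to the cytoskeleton and carries the WNT signal into the nucleus. Its ratios were -0.12, 0.02 and -0.35 in the 3 replicates at 0 hr and -0.12, 0.77 and 1.80 at 48 hr. The lowest late value thus lay within the early range, and the other two were far above it. The means were -0.15 ± 0.19 at 0 hr and 0.82 ± 0.96 at 48 hr (SD, n = 3), a 1.76-fold higher level in treated epithelia at the later time. The difference was 0.97 ± 0.34 on the log2 scale (SE; limma, unadjusted p = 0.0142), and both dye orientations gave it, at 1.11 and 0.83. In the neomycin channel the log2 level went from 8.40 to 9.68, and in the control channel from 8.54 to 8.86. At 24 hr the mean ratio was -0.07 ± 0.12 (SD, n = 3).

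The single arrays of CTNNB1 followed the replicate means. In 48 hr replicate 2 all 8 arrays lay above 0, between 0.25 and 1.41. In replicate 3, 5 of 6 did, up to 3.17, and the one below 0, at -0.40, was an array that stood apart. In replicate 1 only 2 of 5 lay above 0. Without 48 hr replicate 3 the difference was 0.48, and without 48 hr replicate 1 it was 1.43, which limma called (adjusted p = 0.0289, with a range of 0.000668 to 1.00 in all alternatives). Medians over arrays in place of means gave 0.96.

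IGFBP1, a secreted protein that binds insulin-like growth factors, showed much the same pattern. Its ratios were -0.15, -0.01 and -0.24 at 0 hr and -0.12, 0.83 and 1.83 at 48 hr. All 8 arrays of 48 hr replicate 2 lay above 0 (0.57 to 1.50) and 5 of 6 of replicate 3. The difference of 0.98 ± 0.34 (SE; limma, unadjusted p = 0.0143) was 1.01 and 0.95 in the 2 orientations, and it was 0.49 without 48 hr replicate 3 and 1.46 without replicate 1, the latter called by limma (adjusted p = 0.0289, with the same range in all alternatives). At 24 hr the mean ratio was 0.06 ± 0.19 (SD, n = 3).

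QDPR, the reductase that regenerates the tetrahydrobiopterin cofactor, was likewise high in replicates 2 and 3 only. Its ratios were 0.01, 0.04 and -0.43 at 0 hr and -0.22, 1.26 and 1.24 at 48 hr, with 8 of 8 arrays of replicate 2 and 6 of 6 of replicate 3 above 0 at the later time. In replicate 1 only 1 of 5 arrays did so. The difference was 0.89 ± 0.37 (SE; limma, unadjusted p = 0.0353). QDPR was the one of these with a higher mean at 24 hr, 0.39, though with an SD of 0.64.

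SMARCA4, the ATPase of the SWI/SNF chromatin remodelling complex (BRG1), came from the opposite replicate. Its ratios were 0.10, 0.04 and -0.21 at 0 hr and 1.92, -0.05 and 0.27 at 48 hr. In 48 hr replicate 1, 4 of 5 arrays lay above 0, from -0.01 to 3.72. Without that replicate the difference fell from 0.74 ± 0.37 (SE) to 0.13.

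**Figure D2:**
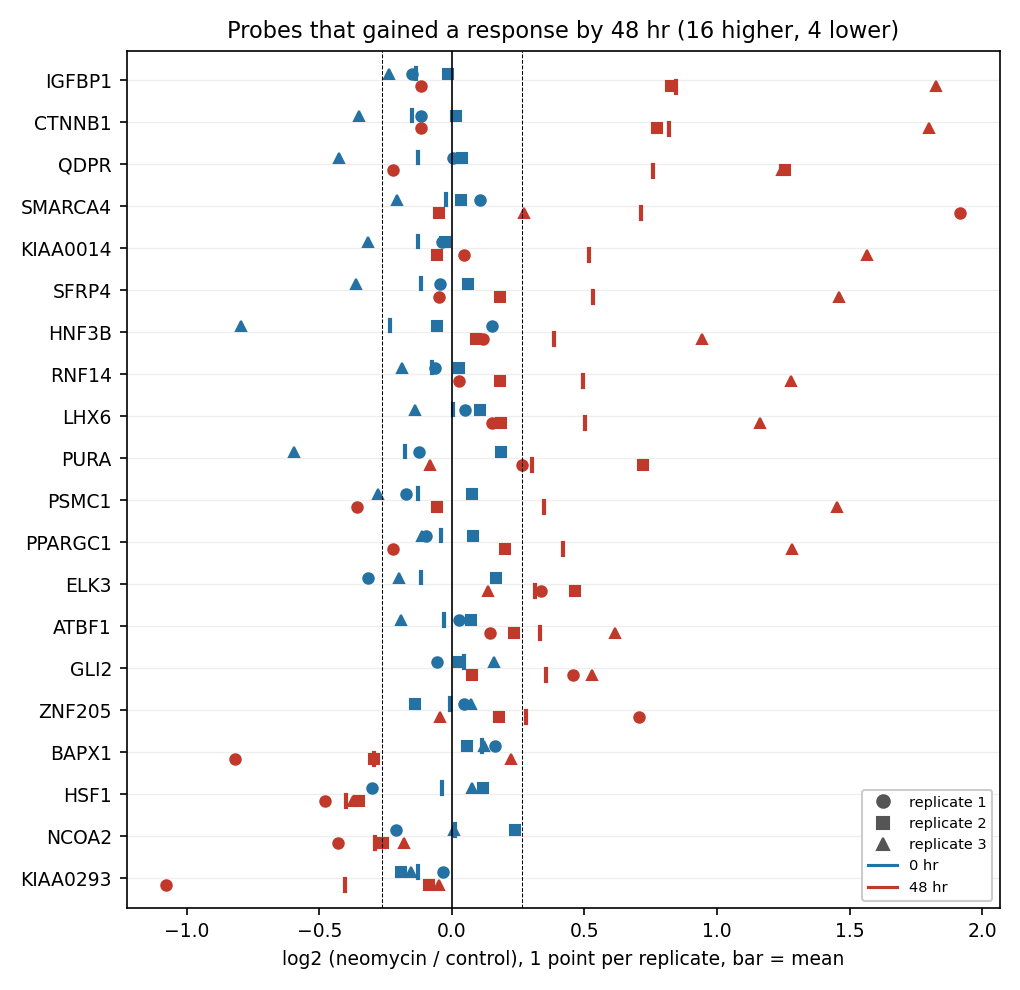
Log2 ratio of neomycin-treated over control RNA in each replicate at 0 hr (blue) and 48 hr (red) for the 16 probes that gained a higher ratio and the 4 that gained a lower one, with bars at the means and dashed lines at 1.2-fold. For IGFBP1, CTNNB1, KIAA0014, SFRP4, RNF14 and LHX6 the red triangle of replicate 3 stands far right of the others, and for SMARCA4 the red circle of replicate 1 does.

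For most of the other gains, 1 replicate carried the mean. Of the 16 probes, 11 had their highest 48 hr value in replicate 3, 3 in replicate 2 and 2 in replicate 1. All 3 late values were above 0 for 6 of them, and for none were all 3 past 1.2-fold. KIAA0014 was at 0.04, -0.06 and 1.56 at 48 hr. SFRP4, a secreted protein that binds WNT ligands, was at -0.05, 0.18 and 1.46, with all 6 arrays of replicate 3 above 0 (0.30 to 2.54). HNF3B (now FOXA2), a forkhead TF of endoderm and floor plate, was at 0.15, -0.05 and -0.80 at 0 hr and at 0.12, 0.09 and 0.94 at 48 hr. Replicate 3 was thus the lowest early and the highest late, and the difference of 0.62 ± 0.25 (SE) became 0.33 without 0 hr replicate 3.

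RNF14, LHX6 and ATBF1 were the 3 of the 16 gains toward a higher ratio whose replicates did not overlap. Over all 1281 tested probes, 50 (3.9%) lay wholly above. The 16 had been selected for a rise, which favours such a pattern, so the count is no result about them. RNF14, a ubiquitin ligase and androgen receptor coactivator, was at -0.06, 0.03 and -0.19 early and at 0.03, 0.18 and 1.28 late. Replicates 1 and 2 were barely higher late, and the difference of 0.57 ± 0.25 (SE; limma, unadjusted p = 0.039) became 0.18 without 48 hr replicate 3. LHX6, a LIM homeobox TF, reached 0.15, 0.19 and 1.16 late, from 0.05, 0.11 and -0.14. ATBF1 (now ZFHX3), a large homeodomain and zinc finger TF, had the most even late replicates of them. It was at 0.03, 0.07 and -0.19 early and 0.15, 0.23 and 0.61 late. The difference was 0.36 ± 0.14 (SE; limma, unadjusted p = 0.0227), but 0.55 with neomycin in Cy3 and 0.17 with neomycin in Cy5. Its single arrays at 48 hr lay between 0.12 and 1.49 in the first orientation and between -0.51 and 0.37 in the second.

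ELK3 had its highest late value in replicate 2. An ETS factor that can repress immediate early genes, it was at -0.32, 0.16 and -0.20 at 0 hr and at 0.34, 0.47 and 0.14 at 48 hr. Its difference of 0.43 ± 0.15 (SE; limma, unadjusted p = 0.0119) was 0.60 and 0.26 in the 2 orientations. GLI2, the main activator of hedgehog target genes, was at -0.05, 0.03 and 0.16 early and 0.46, 0.08 and 0.53 late. PURA, which binds purine-rich DNA and RNA, was at 0.26, 0.72 and -0.08 late. ZNF205 was at 0.70, 0.18 and -0.04. The last 2, PSMC1 (an ATPase subunit of the proteasome) at -0.36, -0.06 and 1.45 and PPARGC1 (a coactivator of mitochondrial biogenesis) at -0.22, 0.20 and 1.28, again had 1 high replicate. Without it the difference of PSMC1 was -0.08 and that of PPARGC1 0.03, down from 0.47 and 0.46.

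**Figure D3:**
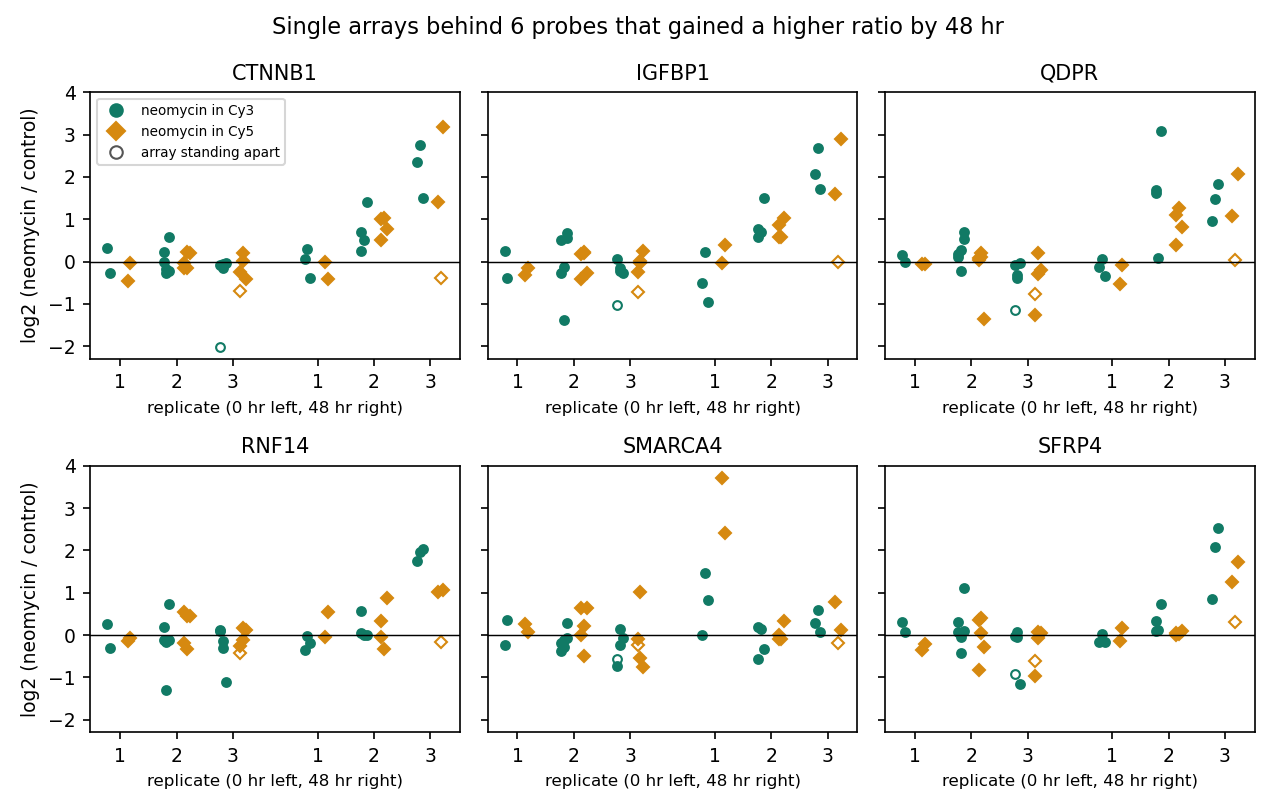
Log2 ratio of neomycin-treated over control RNA on each single array for 6 probes that gained a higher ratio, by replicate, with 0 hr at left and 48 hr at right in each panel, colours for the dye that held neomycin RNA and open symbols for the 3 arrays that stand apart. For CTNNB1, IGFBP1 and QDPR every array of 48 hr replicate 2 lies above 0 in either orientation, and the open diamond of 48 hr replicate 3 is that replicate's lowest point.

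The gains toward a higher ratio were also read by channel. They were selected for a rise of the ratio, so the change in neomycin RNA had to exceed that in control RNA. The log2 level in neomycin RNA was higher at 48 than at 0 hr for 15 of the 16, with a median change of 0.77. In control RNA it was higher for 9 of the 16, with a median change of 0.17. Over all 1281 tested probes, 620 were higher in neomycin RNA and 588 in control RNA, with median changes of -0.01 and -0.03. Some of the 16 sat together on the slide: CTNNB1, IGFBP1, PPARGC1, PSMC1, RNF14 and SFRP4 lie in rows 29 to 31 and columns 19 to 24 of their subgrids, a window of 34 tested probes chosen after their places were seen. PSMC1, RNF14 and SFRP4 occupy the same row and columns of 3 different subgrids. The other probes of the window had a median ratio of -0.07 in 48 hr replicate 3. The part of position in these values was not tested.

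The 4 gains toward a lower ratio were BAPX1, HSF1, NCOA2 and KIAA0293. HSF1, the TF that drives heat shock genes under protein stress, had a mean below 0 in each late replicate. Its ratios were -0.30, 0.12 and 0.08 at 0 hr and -0.48, -0.35 and -0.37 at 48 hr, so that the late values lay below all early ones. Its single arrays were spread more widely than these means. In 48 hr replicate 1, 2 of 5 arrays were above 0, with values from -1.62 to 1.13, in replicate 2 none of 8 was, and in replicate 3 1 of 6 was. The difference of -0.36 ± 0.23 (SE; limma, unadjusted p = 0.141) was -0.44 and -0.29 in the 2 orientations. The mean at 24 hr was -0.39 ± 0.60 (SD, n = 3), and this spread enters the SE and p of HSF1. NCOA2, a coactivator of nuclear receptors, was at -0.21, 0.24 and 0.01 early and at -0.43, -0.26 and -0.18 late. BAPX1 (NKX3-2), a homeobox TF of cartilage, was spread more widely, at 0.16, 0.06 and 0.12 early and -0.82, -0.29 and 0.22 late. KIAA0293 was at -1.08, -0.09 and -0.05 late, and without 48 hr replicate 1 its difference of -0.28 became 0.06.

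Of the responses present at 0 hr and gone by 48 hr, 6 had been below the controls. GTF2E2, a subunit of the general transcription factor TFIIE, had the smallest unadjusted p of all probes. Its ratios were -0.42, -0.48 and -0.41 at 0 hr and 0.43, 0.05 and -0.13 at 48 hr, which do not overlap, and the difference was 0.55 ± 0.13 (SE; limma, unadjusted p = 0.00121). The early value, however, came from one orientation, 0.00 with neomycin in Cy3 and -0.87 with neomycin in Cy5. A single array of 0 hr replicate 2 read -5.93, and with medians over arrays the difference was 0.23.

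The mean ratios of ZNF288 and HOXA13 were also past 1.2-fold below the controls early and not late. Over the 6 probes lower at 0 hr only, the median log2 change in level was 0.03 in neomycin RNA and -0.31 in control RNA. For ZNF288 these changes were 0.19 and -0.23, within the spread of its replicates. Its levels in neomycin RNA were 7.74, 8.37 and 8.78 at 0 hr and 8.45, 8.07 and 8.93 at 48 hr. In control RNA they were 7.87, 8.57 and 9.24, and then 8.35, 7.93 and 8.72. These levels therefore do not place the change in either channel. ZNF288, a zinc finger gene, was at -0.13, -0.20 and -0.47 early and at 0.11, 0.14 and 0.21 late, below the controls in all 3 replicates and then above them in all 3. The difference of 0.42 ± 0.11 (SE; limma, unadjusted p = 0.00283) was 0.59 and 0.25 in the 2 orientations. HOXA13, a TF of limb and hindgut patterning, was at -0.29, -0.23 and -0.31 early and at 0.14, -0.02 and 0.07 late. Its early mean was 0.03 in one orientation and -0.58 in the other. MC1R (the melanocortin receptor) and HMGIY (a chromatin protein, now HMGA1) were also lower in all 3 early replicates.

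Among the 6 probes higher in treated epithelia at 0 hr only, RGC32 had all 3 early values past 1.2-fold. This gene, induced by complement and linked to the cell cycle, was at 0.33, 0.32 and 0.46 early and at 0.07, 0.03 and 0.11 late. At 0 hr 4 of 4, 7 of 11 and 9 of 10 arrays of the replicates lay above 0. In replicate 2, arrays with neomycin in Cy3 at 1.86 and 2.03 stood far above the rest, which ran from -0.73 to 0.36. The early value of that replicate therefore rested on them. The difference was -0.30 ± 0.10 (SE; limma, unadjusted p = 0.0101), with -0.23 and -0.37 in the 2 orientations. NRF went from 0.31, 0.33 and 0.18 to -0.06, -0.18 and -0.04, crossing 0 in every replicate mean, with a difference of -0.37 ± 0.12 (SE). Its early mean was 0.08 with neomycin in Cy3 and 0.46 in Cy5, and its late mean -0.25 and 0.06. In 0 hr replicate 3, 5 of 10 arrays lay above 0, up to 1.76. ATP7B, a copper transporter, was at 0.12, 0.49 and 0.30 early and at -0.39, 0.06 and 0.01 late. For FLJ11186 the 2 orientations disagreed (0.14 and -0.90), and ZNF79 and LOC57209 overlapped between the times.

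**Figure D4:**
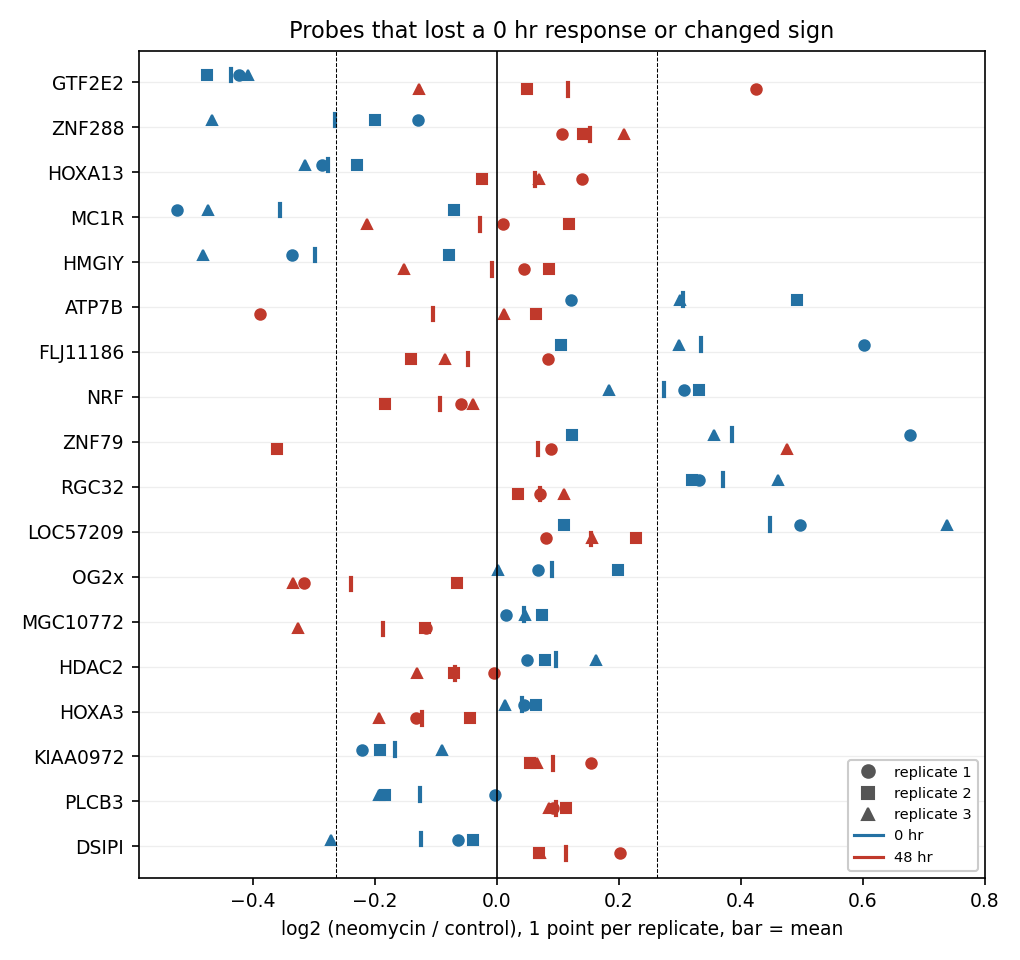
Log2 ratio of neomycin-treated over control RNA in each replicate at 0 hr (blue) and 48 hr (red) for 11 of the 12 probes that lost an early response (upper rows) and for 7 smaller ones with all replicates on opposite sides of 0 at the 2 times (lower rows), with bars at the means and dashed lines at 1.2-fold. Blue and red points are apart for GTF2E2, ZNF288, HOXA13, NRF and RGC32, and they overlap for MC1R and ZNF79.

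With no limit on size, a change of sign in every replicate was seen for 13 probes that went from below to above 0 (1.01%) and for 9 that went the other way (0.703%). Of these, 8 and 5 had a difference of the same sign in both orientations, and 1 and 2 differed by at least 1.2-fold. Besides ZNF288 and NRF they include small shifts such as KIAA0972 (-0.22, -0.19 and -0.09 to 0.15, 0.05 and 0.07) and PLCB3, a phospholipase C (0.00, -0.18 and -0.19 to 0.09, 0.11 and 0.09). DSIPI (now TSC22D3), the glucocorticoid-induced leucine zipper, went from -0.06, -0.04 and -0.27 to 0.20, 0.07 and 0.07. Its spots were no brighter than their surroundings at 48 hr, with a median foreground 0.99 times the local background. With no background correction its difference was -0.04. In the other direction OG2x went from 0.07, 0.20 and 0.00 to -0.32, -0.07 and -0.33. MGC10772 went from 0.01, 0.07 and 0.05 to -0.12, -0.12 and -0.33.

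The remaining probes with small p and no overlap stayed under 1.2-fold at both times. MGC2508 (0.30 ± 0.11, log2 difference and SE) and ZNF7 (0.30 ± 0.12) were higher late. Lower late were DKFZP434D156 (-0.40 ± 0.14), the DNA helicase subunit of TFIIH ERCC3 (-0.24 ± 0.10), the LIM protein CRIP1 (-0.22 ± 0.10), and RAE1 (-0.26 ± 0.13), an mRNA export factor. TEF, a bZIP TF under circadian control, was at 0.20, 0.10 and 0.19 early and at 0.01, -0.09 and -0.20 late.

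Among probes higher or lower at both times, CEBPG had a mean of -0.33 at 0 hr and again at 48 hr, and BCL11A went from 0.45 to 0.66. BCL11A, a zinc finger repressor, had its highest value in replicate 1 at both times, at 0.96, 0.05 and 0.34 at 0 hr and at 1.16, 0.66 and 0.17 at 48 hr. CEBPG, a bZIP partner of other C/EBP factors, was at -0.68, -0.32 and 0.02 and then at 0.47, -0.71 and -0.74, so that the low replicates were not the same ones. The difference of BCL11A (0.21 ± 0.25, SE) was within its error, and that of CEBPG (0.00 ± 0.38) had no stable sign.

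By pathway, 5 of the 6 probes of the WNT and beta-catenin list were tested. Of these, 2 (CTNNB1 and PPARGC1) were gains toward a higher ratio, beside 1.25% of all tested probes. The study had already named both as WNT genes raised at 48 hr in the utricle. For CTNNB1 it also reported a rise at 48 hr by qPCR on new biological samples. The list was chosen with earlier results known. The count is therefore no independent result for the pathway. SFRP4, which binds WNT ligands and was also a gain toward a higher ratio, was not on this list. Without 48 hr replicate 3 its difference was 0.18 and that of PPARGC1 0.03. The list's median difference was -0.01, against 0.01 over all tested probes, and the other 3 lay between -0.13 and -0.01. LEF1, which binds DNA with beta-catenin, was at 0.03, -0.02 and 0.08 early and at -0.14, 0.08 and -0.25 late. Notch effectors were higher late for 5 of 7, with a median of 0.13, and none had a p under 0.05. HEY1, a Notch-induced repressor, was at 0.00, 0.00 and -0.17 early and 0.30, 0.26 and -0.01 late, and HES7 at 0.03, 0.29 and -0.41 and then 0.28, 0.34 and -0.02. FHL1, listed as a partner of the Notch DNA-binding protein, was -0.52, 0.14 and -0.48 early and 0.04, -0.10 and -0.29 late.

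In lists of injury and stress pathways, members lay on both sides of 0. Of 9 AP-1 probes 4 were higher late and 5 lower, with a median of -0.05. JUNB, a subunit of AP-1, was at 0.14, -0.12 and 0.22 early and -0.07, -0.29 and -0.26 late. MAPK8IP1, the scaffold of the JNK cascade that acts on AP-1, was at -0.01, 0.23 and 0.11 early and at -0.14, -0.47 and -0.17 late, with no overlap and a difference of -0.37 ± 0.25 (SE). Of 8 NF-kB probes 6 were higher late, with a median of 0.05. The list leaves out NRF, the NF-kB repressing factor (NKRF) in the study's gene lists. It went the other way, with the difference of -0.37 given above. RELA, the transactivating subunit p65, was at -0.26, -0.09 and -0.06 early and 0.17, 0.00 and 0.09 late. Of 13 stress and hypoxia probes 8 were lower late, and beside HSF1 the hypoxia factor HIF1A went slightly the other way, from 0.11, -0.06 and -0.01 to 0.22, 0.19 and 0.13. Of 4 C/EBP probes 3 were lower late, with a median of -0.11.

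The same held for genes of proliferation and patterning. Cell cycle probes split evenly, 8 higher and 8 lower of 16, with E2F4 (a repressor of quiescent cells) at -0.27 ± 0.12 (log2 difference and SE). The MYC network had 7 of 12 higher, with MNT, which competes with MYC for MAX, at 0.27 ± 0.13. Among regulators of p27, the cyclin-dependent kinase inhibitor that keeps supporting cells quiescent, TRIP15 (now COPS2, of the COP9 signalosome) was at 0.22 ± 0.12, CUTL1 at 0.25 ± 0.15 and SIX6 at -0.17 ± 0.13. DACH, a repressor of the retinal determination network, was at 0.05 ± 0.14. Of 17 TGF-beta and BMP probes 10 were higher, with the activin and nodal effector FOXH1 at -0.27 ± 0.12 but near 0 in one orientation. Of 8 hedgehog and ZIC probes 5 were lower, against the gain of GLI2, and ZIC2 was at -0.18 ± 0.10.

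The 8 tested circadian probes were all lower late, with a median of -0.11, while 52.1% of all tested probes were higher. Of 16 alternatives, 15 kept the median below 0, but on the arrays with neomycin in Cy3 alone 4 probes were higher and 4 lower (median 0.01), and with median centring 3 were higher and 5 lower. The differences ran from -0.25 to -0.02, 1 of the 8 had an unadjusted p under 0.05 in limma (TEF), and 2 had replicates that did not overlap (TEF and BHLHB3). Over all tested probes 1.17% were lower at that limit and 3.36% lay wholly below. BHLHB3 (now BHLHE41), a repressor of clock genes, was at -0.02, -0.03 and 0.08 early and at -0.22, -0.31 and -0.18 late. NR1D2, a nuclear receptor that represses clock genes, was at -0.08, 0.15 and 0.11 and then 0.01, -0.14 and -0.11. Another 6 circadian probes, ARNTL and CLOCK among them, were too dim to test.

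Among large TF families, and beside the 52.1% of all tested probes that were higher late, 12 of 35 HOX probes were higher and 23 lower, with a median of -0.01. The HOX median stayed below 0 under 13 of 16 alternatives. On the arrays with neomycin in Cy3 alone, however, 21 HOX probes were higher and 14 lower. Of the zinc finger probes 64 were lower and 53 higher, also with a median of -0.01. Of 25 basal RNA polymerase II factors 17 were higher, with a median of 0.06, with TAF2C1 at 0.25 ± 0.12 and TAF2K at 0.24 ± 0.11 (log2 difference and SE) after GTF2E2. Of 35 nuclear receptors 22 were higher, with a median of 0.03, among them the receptors of vitamin D (VDR, 0.18 ± 0.12) and thyroid hormone (THRA, 0.19 ± 0.11). FOX and SOX probes split evenly (9 and 9, 4 and 4), and TBX (6 and 4) and ETS (9 and 8) nearly so, with SOX13 at 0.20 ± 0.10 and TBX21 at 0.23 ± 0.12. PAX, EYA and related probes had 8 of 13 higher and polycomb probes 6 of 10, each with a median of 0.03, and KLF and SP probes had 3 of 8 higher, with a median of -0.02. Of 14 chromatin remodellers and deacetylases 10 were higher, with SMARCA4 far above the others. Not 1 probe of any list was called by limma at an adjusted p under 0.05, as none was overall. The sign of a list's median held under all 16 alternatives only for Notch effectors, basal RNA polymerase II factors, and the neuron and blood markers.

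**Figure D5:**
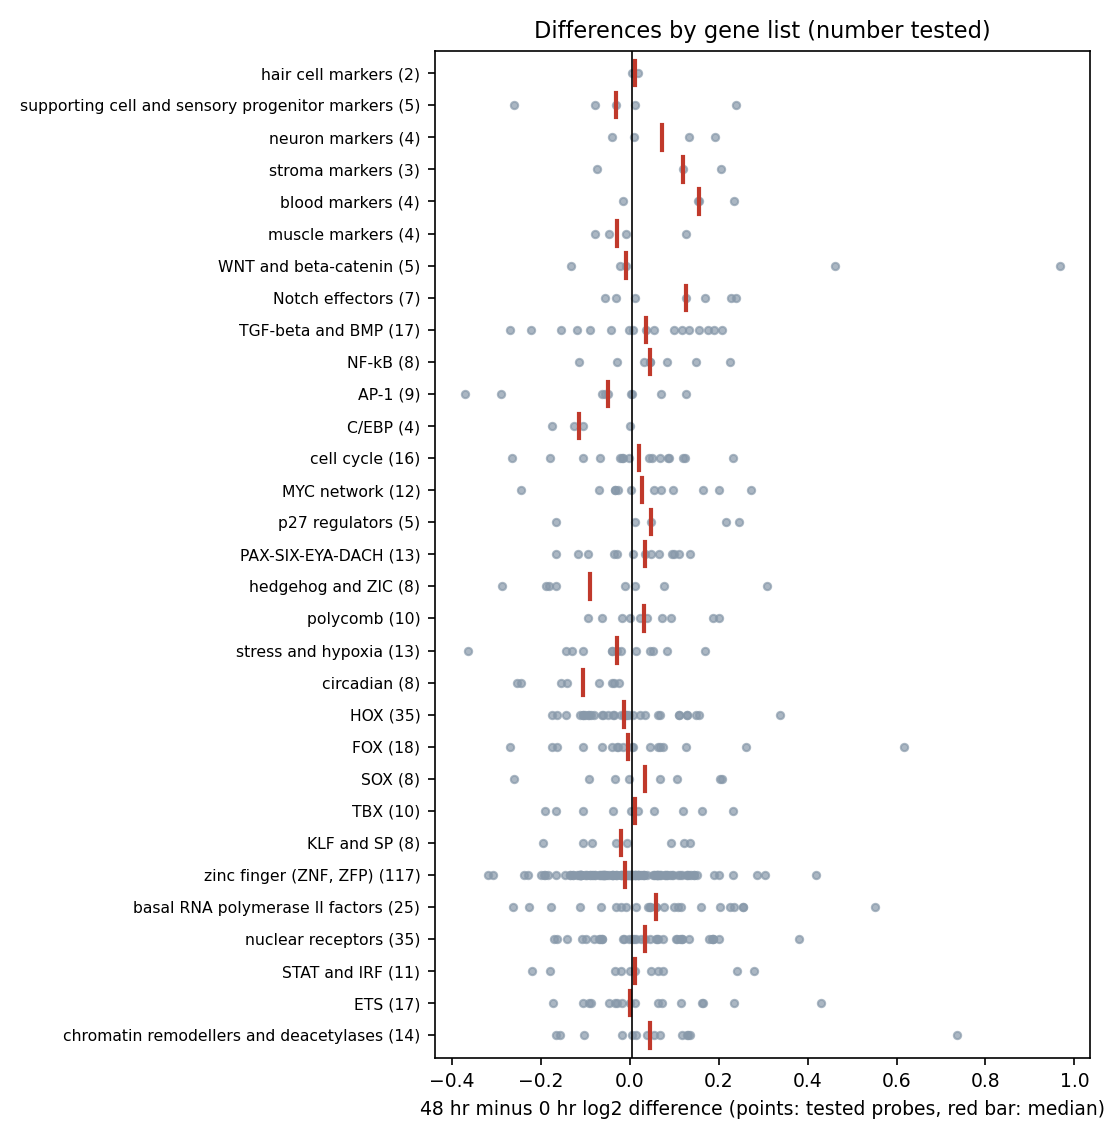
Difference of the log2 ratios, 48 hr minus 0 hr, for each tested probe of 31 gene lists (grey points), with the list medians (red bars) and the median of all tested probes (black line). The 8 circadian points lie left of the line, the point furthest right in the WNT list is CTNNB1, and most medians lie within 0.1 of 0.

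Markers of other cell types that could be carried into the epithelium were few. Tested stroma markers had differences from -0.07 to 0.21 (3 probes), blood markers from -0.02 to 0.24 (4 probes), neuron markers from -0.04 to 0.19 (4 probes) and muscle markers from -0.08 to 0.13 (4 probes), none with an unadjusted p under 0.05 in limma. The supporting cell TF GATA3 was at -0.04, 0.07 and -0.15 early and 0.16, -0.34 and -0.19 late. Other genes that the study singled out were reported there for responses against time-matched controls, not for a difference between times. Between the 2 times, TAF2H (-0.07 ± 0.15, log2 and SE), MYCBP (0.00 ± 0.16) and NR1H3 (0.08 ± 0.19) differed within their error. So did KIAA0173 (-0.05 ± 0.12) and HNF3A (-0.16 ± 0.21). Such differences do not test the study's ratios at either time. The late mean ratios here were -0.08, -0.04, 0.03, -0.01 and 0.08 in the same order, with SDs from 0.05 to 0.47. TBX15, a T-box TF, was above the controls in every replicate, at 0.60, 0.07 and 0.55 early and 0.23, 0.28 and 0.20 late. The p-values of these comparisons do not show that the 2 times were alike, since the median SE of 0.13 leaves room for differences of 1.2-fold either way.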

How the data were processed

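Per the study's methods, LOWESS normalization and averaging of hybridisations lay behind its gene lists. The deposited files used here are earlier: per the file headers, ImaGene 4.1 gave each spot's mean foreground and local background intensity for each dye, not normalized. The authors also deposited log2 ratios per spot. These are foreground intensities only, divided between the dyes in the headers' direction and not centred (array medians -2.03 to 1.81), and served as an alternative.

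Intensities were corrected with normexp (offset 50) and normalized by loess within each array in limma 3.58.1 (R 4.3.3), with 27 names of no gene at weight 0 and 8 marked spots left out. Ratios were turned by the title digit. Duplicate spots, then arrays within a digit, then both digits were averaged, and arrays of a replicate counted as 1 sample. The dimmest 15% of probes (226) were removed. The 9 replicate values, those of 24 hr included for the spread, were fitted with 1 coefficient per time, and 48 against 0 hr was tested two-sided. Levels by channel were taken after Aquantile normalization. The method was tested on simulated data with planted differences larger than any observed here. The check of recovery used less spread between replicates and arrays than these data hold, so it does not show what is found at their spread.

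Named genes are the 10 with the smallest p in each direction that had no overlap and agreed in both digits, up to 5 gains in each direction, a fixed list from the study, and up to 3 of each gene list. The remaining gains and losses were named after their values were seen, except for items that are not reported here. Members and lists were chosen with earlier results of these data known.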

Additional observations from a re-analysis of the deposited data

Results flagged for a closer look

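For 9 of the genes given above or belonging to their lists, the neomycin response lay on one side of 0 in all 3 replicates at 0 hr and on the other side in all 3 at 48 hr. Over all 1281 tested probes, 13 did so from below to above (1.01%) and 9 from above to below (0.703%). Some genes had been named because their replicates did not overlap, which favours this pattern. The difference itself was tested in limma and called for none of them (smallest adjusted p of any probe 0.998). On the log2 scale, 48 hr minus 0 hr, it was 0.42 for ZNF288, 0.26 for KIAA0972, 0.22 for PLCB3 and 0.24 for DSIPI, which went from below to above the controls. It was -0.37 for NRF, -0.33 for OG2x and -0.23 for MGC10772, which went from above to below. In a single orientation, however, some of these means were not on the side of 0 given here. On the arrays with neomycin in Cy5 alone the late mean of NRF was 0.06. The early means there were -0.04 for OG2x and 0.004 for PLCB3. With neomycin in Cy3 alone the early mean of MGC10772 was -0.02. HDAC2, a histone deacetylase, differed by -0.17 (0.05, 0.08 and 0.16 early, 0.00, -0.07 and -0.13 late). HOXA3 differed by -0.16 (0.04, 0.06 and 0.01 early, -0.13, -0.04 and -0.19 late). In the arrays with neomycin in Cy3 alone, however, these 2 differences were 0.09 and 0.02. The median foreground at 48 hr was only 0.99 times the local background for DSIPI and 1.05 times for HDAC2.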

How the results depend on the processing

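The main limits are weak spots, 3 replicates a side and differences that correlated negatively between the orientations (r = -0.11). Only 42.2% of probes had the same sign in both. Medians over arrays were added after seeing the data. No probe was called in any setting but 3. A fit of all arrays called 4 probes (IGFBP1, CTNNB1, QDPR and HNF3B) with the biological replicate as a random block and the same number with the quantification day. At consensus correlations of 0.0017 and -0.0093 these fits weigh arrays almost as independent samples. Leaving out 1 replicate called 0 to 2, the latter without 48 hr replicate 1. The methods' t-test called 0, with 43 at an unadjusted p under 0.05, and with the limits of fold and p it gave 9 (4 higher, 5 lower).

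The study does not state whether replicate numbers pair the samples. The correlations of their deviations were -0.05, 0.19 and 0.01, which cannot decide it, since replicates of the same time correlated little as well. With the replicate number as a block, 0 probes were called and 33 rather than 28 passed 1.2-fold and an unadjusted p under 0.05, 22 of them higher. That count was 8 (4 higher) at a brightness of 800 or more, 18 (15 higher) on arrays of digit 3, 23 (7 higher) on digit 5, 26 (11 higher) with plain subtraction, 22 (11 higher) in the 6 replicates alone, 17 (8 higher) with medians over arrays, and 22 to 54 leaving out 1 replicate.

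Switches numbered 0, but 28 with plain background subtraction, 4 with median centring, 1 with scale normalization, 4 on digit 3, 1 with the deposited ratios and 0 to 2 leaving out 1 replicate. The 20 gains became 12 (10 higher) with no background correction, 189 (104 higher) with subtraction, 17 (11 higher) with median centring, 35 (24 higher) with scale normalization, 9 (6 higher) at a brightness of 800 or more, 104 (74 higher) on digit 3, 91 (25 higher) on digit 5, 32 (8 higher) with the deposited ratios and 16 to 58 leaving out 1 replicate. The 12 losses became 7, 72, 26 (3 from higher, 23 from lower) and 19 with no background correction, subtraction, median centring and scale normalization, 29 and 51 on digits 3 and 5, and 12 to 48 leaving out 1 replicate. The 12 probes past 1.2-fold at both times became 5 with no background correction, 87 with subtraction, 22 with scale normalization, 29 and 49 on digits 3 and 5, and 4 to 20 leaving out 1 replicate. Of the 20 gains, 11 remained without 48 hr replicate 3, 14 without replicate 1, and 10 with the deposited ratios. CTNNB1 was a gain under the 18 alternatives that tested it, which a brightness of 800 or more did not. The cause of these shifts was not tested.

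Differences that changed sign were, on digit 3, CEBPG -0.22, DACH -0.058, FHL1 -0.0078, FLJ11186 0.14, FOXH1 0.024, GATA3 0.10, HDAC2 0.092, HOXA3 0.021, KIAA0173 0.15, LEF1 0.11, MYCBP -0.014 and NR1H3 -0.093. On digit 5 they were ATOH1 -0.073, BARHL1 -0.20, BCL11A -0.14, CUTL1 -0.12, NR1D2 0.12 and TAF2H 0.41. With print-tip loess they were ATOH1 -0.043, BARHL1 -0.0064, CEBPG -0.084, HNF3A 0.0032 and TAF2H 0.043, and with scale normalization ATOH1 -0.0099, BARHL1 -0.080 and CEBPG -0.085. With the deposited ratios they were ATOH1 -0.047, BARHL1 -0.012, CEBPG -0.033, GATA3 0.74, MYCBP -0.077 and NR1H3 -0.072. Plain subtraction gave BAPX1 0.15, BARHL1 -0.083, CEBPG -0.057, DACH -0.042 and KIAA0173 0.021, and no background correction DSIPI -0.037 and KIAA0173 0.035. Median centring gave BARHL1 -0.046, DACH -0.035, KIAA0173 0.0035 and TAF2H 0.083, medians over arrays BARHL1 -0.065, CEBPG -0.26 and NR1H3 -0.073, and a plain mean CEBPG -0.023. Without the arrays that stand apart they were BARHL1 -0.0030, CEBPG -0.043 and KIAA0173 0.017. All arrays in 1 fit gave CEBPG -0.19 and MYCBP -0.048 with the replicate, and CEBPG -0.16 and MYCBP -0.038 with the day as random block. Leaving out 1 replicate, the range was -0.0076 to 0.050 for ATOH1, -0.10 to 0.15 for BARHL1, -0.040 to 0.46 for BCL11A, -0.40 to 0.21 for CEBPG, -0.042 to 0.093 for DACH, -0.22 to 0.031 for GATA3, -0.41 to 0.056 for HNF3A, -0.14 to 0.016 for KIAA0173, -0.46 to 0.059 for KIAA0293, -0.11 to 0.15 for MYCBP, -0.13 to 0.21 for NR1H3, -0.080 to 0.82 for PSMC1 and -0.14 to 0.026 for TAF2H.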
